A study of Homo sapiens with 12 samples.

Results

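RNA from the nucleolar (NO) fraction of wild-type HEK293T cells (HEK WT) was compared with RNA from the cytoplasmic-nuclear (CN) fraction of the same cell line, to describe which kinds of RNA and which genes take a larger or a smaller part of nucleolar RNA. The comparison used 6 of the 12 libraries of the series, chosen by their labels with earlier results of these data known. They were NO replicates 1 to 3 and CN replicates 1 to 3 of HEK WT, described by the submitters as biological triplicates. The other 6 libraries are the same fractions of HNRNPUL1 knockout cells (HEK UL1 KO) and serve here for 1 test of the difference. HEK293T is an immortalised line of human embryonic kidney origin that carries a viral large T antigen, the cells received no treatment, and CN holds the cytoplasm together with the nucleus outside nucleoli, so a nuclear and a cytoplasmic RNA cannot be told apart within it. All 61163 listed genes entered the comparison, and 29340 had enough counts to be tested. Total RNA was sequenced without removal of rRNA. A library held between 42553766 and 56531162 counts in NO and between 80139835 and 104040073 in CN.

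The nucleolus is the part of the nucleus where RNA polymerase I transcribes the 45S precursor of 18S, 5.8S and 28S rRNA and where the precursor is cleaved, modified and assembled into ribosomal subunits. Small nucleolar RNAs (snoRNAs) guide these steps: box C/D snoRNAs direct 2′-O-methylation, box H/ACA snoRNAs direct pseudouridylation, and a few of both kinds, U3 among them, are needed for cleavage of the precursor. Of the small RNAs that RNA polymerase III makes, tRNA, Y RNA and vault RNA work mainly in the cytoplasm. Mitochondrial RNA is made and kept inside mitochondria.

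Sequences of the small RNAs on which the comparison turned are shown first, because they carry the sequence boxes that define the classes. Positions are those of RefSeq on GRCh38.p14, the strand is that of GENCODE release 44, and the bases were read 5′ to 3′ from GRCh38. In the box C/D snoRNAs the capitals mark the core of box C (TGATGA in the first 20 bases) where it was found and box D (CTGA in the last 20 bases), and in the box H/ACA snoRNA they mark the ACA that stands 3 bases before the 3′ end. SNORD3A (U3, chr17:19188016-19188232, plus strand) has no TGATGA in its first 20 bases, SNORD14A (U14, chr11:17074653-17074744, minus strand) and SNORD33 (chr19:49490617-49490699, plus strand) have both boxes, and SNORA73B (U17B, chr1:28508558-28508762, plus strand) has the ACA. The Y RNAs RNY4 (chr7:148963315-148963410, plus strand) and RNY5 (chr7:148941488-148941571, plus strand) are shown in contrast, as they have neither box and lay on the other side of the comparison.
SNORD3A: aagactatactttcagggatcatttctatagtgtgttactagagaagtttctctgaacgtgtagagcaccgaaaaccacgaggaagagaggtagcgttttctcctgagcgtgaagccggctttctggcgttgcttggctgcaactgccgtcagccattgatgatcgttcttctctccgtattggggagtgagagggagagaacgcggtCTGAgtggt
SNORD14A: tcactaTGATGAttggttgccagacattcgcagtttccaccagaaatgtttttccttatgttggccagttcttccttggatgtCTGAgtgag
SNORD33: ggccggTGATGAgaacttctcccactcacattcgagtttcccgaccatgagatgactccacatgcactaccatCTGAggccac
SNORA73B: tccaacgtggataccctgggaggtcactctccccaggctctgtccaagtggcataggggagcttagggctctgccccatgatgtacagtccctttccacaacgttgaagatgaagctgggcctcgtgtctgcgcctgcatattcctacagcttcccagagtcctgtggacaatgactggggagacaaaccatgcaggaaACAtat
RNY4: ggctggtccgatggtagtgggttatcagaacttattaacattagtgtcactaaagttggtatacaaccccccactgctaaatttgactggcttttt
RNY5: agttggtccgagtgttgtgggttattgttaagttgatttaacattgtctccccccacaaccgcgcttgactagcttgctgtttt

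Among the tested genes named as box C/D snoRNAs, 109 of 176 had a position and a strand, and 107 of these (98.2%) held CTGA in their last 20 bases, read on the transcribed strand. TGATGA stood in the first 20 bases of 65 of them (59.6%). Of the 127 tested box H/ACA genes, 105 had a sequence, 92 of these (87.6%) held the ACA at its place, and 9 (8.57%) held CTGA in the last 20 bases. Of the 37 tested snRNA genes, 0 held TGATGA in the first 20 bases, 2 (5.41%) held CTGA in the last 20 and 0 held the ACA.

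Across all tested genes, 15494 of 29340 (52.8%) differed between NO and CN at an adjusted p under 0.05, 9355 of them (31.9%) higher and 6139 (20.9%) lower in NO. These and all adjusted p below come from edgeR's quasi-likelihood test with Benjamini-Hochberg adjustment over all tested genes, and levels are CPM, counts scaled to the same library total, after TMM scaling. Because more than 1 gene in 2 passed the test, a count of genes in a list is read against these shares. CPM give a gene's part of a library and not an amount of RNA per nucleolus, so more of one RNA and less of the others in a fraction cannot be told apart. The median log2 fold change over all tested genes was 0.02, and the scaling decided how many genes were called lower: with total counts in place of TMM the median moved up by 0.35, and 606 genes were lower against 6387 higher. The medians of the RNA kinds ran from box C/D snoRNA at a median of 3.63 and box H/ACA snoRNA at 3.38, through lncRNA at 1.71, mitochondrially encoded RNA at 1.64, scaRNA at 0.91 and protein-coding genes at -0.22, down to nuclear tRNA at -1.42 and Y RNA at -2.30. Neighbours in this order changed places in some settings: box H/ACA lay above box C/D snoRNA at 10 or more counts in each library (3.88 and 3.75), and lncRNA then lay below mitochondrial RNA (1.08 and 1.86).

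**Figure D1:**
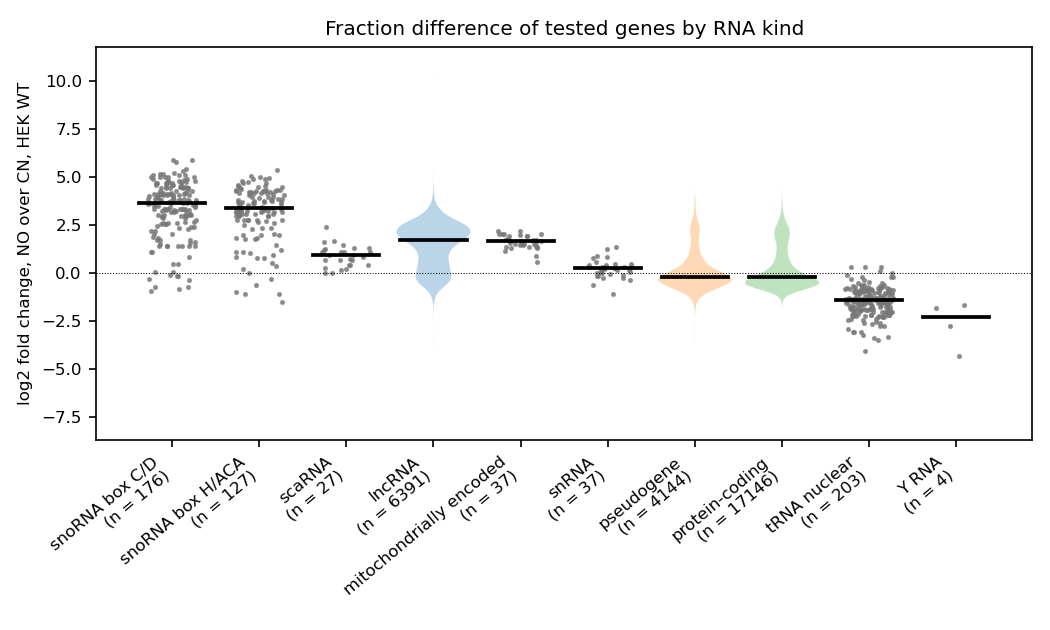
The log2 fold change of NO over CN in HEK WT (vertical axis) is plotted for the tested genes of each RNA kind, as points or, for kinds with over 1000 genes, as a shaded density, and the black bars are medians. Both snoRNA classes lie far above 0 (medians 3.63 and 3.38), while tRNA and Y RNA lie below it (-1.42 and -2.30).

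All 15 snoRNAs on a list drawn up for cleavage of the rRNA precursor were higher in NO, with fold changes from 3.26 to 5.18 on the log2 scale (median 4.67). SNORD3A, a copy of U3, had 7775, 7794 and 8593 CPM in the NO replicates and 345, 252 and 349 in the CN replicates. The groups lay far apart, and the fold change was 25.5 (log2 4.67, SE 0.437, adjusted p = 0.000338). The other U3 copies, SNORD3B-1, SNORD3B-2, SNORD3C and SNORD3D, share most of their sequence, so reads could be counted in several of them, and their log2 fold changes of 4.67, 5.18, 4.75 and 4.59 are not separate evidence. SNORD3B-2 was also among the 5 genes with the highest mean CPM in NO outside nuclear rRNA, at 9651, 9087 and 8046 CPM against 182, 232 and 325 in CN.

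SNORD118 (U8), needed for the maturation of 5.8S and 28S rRNA, had 76.5, 27.6 and 36.2 CPM in NO and 3.95, 3.71 and 2.73 in CN. Its NO replicates differed more among themselves than those of U3, and all lay above CN (log2 3.75, SE 0.377, adjusted p = 0.000463). SNORD13 was kept on this list, although it guides an acetylation of 18S rRNA and not a cleavage. It stood at 78.6, 43.9 and 68.0 CPM against 2.25, 2.01 and 2.18, a log2 difference of 4.89 (adjusted p = 3.57e-05). SNORA73B (U17B), the box H/ACA member shown above, stood at 100, 53.8 and 142 CPM against 2.73, 3.47 and 3.90 (log2 4.87, SE 0.368, adjusted p = 9.76e-05). The lowest of the NO values was 53.8 CPM, in replicate 2, and replicate 2 was also the lowest of the NO replicates for SNORD118 and SNORD13. U14 copy SNORD14A had 9.13, 5.91 and 7.89 CPM in NO against 0.183, 0.171 and 0.297 in CN (log2 5.14, adjusted p = 4.48e-05). SNORD22 (log2 4.46) and SNORA73A (log2 4.69) completed the named members of this list.

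Of 402 listed box C/D genes, 176 were tested, 161 of these (91.5%) were higher in NO and 2 were lower. SNORD33, which guides a methylation of 18S rRNA and lies in an intron of the ribosomal protein gene RPL13A, had 45.4, 22.5 and 31.1 CPM in NO and 0.635, 0.415 and 0.743 in CN. This 55.2-fold difference (log2 5.79, SE 0.334, adjusted p = 4.48e-05) was chosen for display after its value was seen. Of 192 listed box H/ACA genes, 127 were tested, 113 (89%) were higher in NO and 4 were lower. SNORA10 stood at 57.5, 32.7 and 57.6 CPM against 3.59, 2.63 and 3.7 (log2 3.90, adjusted p = 7.71e-05). The genes not tested had too few counts. Since a gene that is low in CN passes the count filter through NO, the same counts were taken over genes with at least 10 counts in every library. There 90 box C/D and 73 box H/ACA genes were higher, with medians of 3.75 and 3.88. The numbers tested under this filter are not given here, so these counts give no share.

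The snoRNA genes lower in NO were SNORD141A, SNORD141B, SNORA100, SNORA105A, SNORA105B and SNORA105C, named here because they are the exceptions. SNORA100 fell the most of them, from 1.92, 1.86 and 1.78 CPM in CN to 0.637, 0.771 and 0.515 in NO (log2 -1.54, adjusted p = 0.00396). SNORA105B had 2.49, 2.50 and 1.59 CPM in NO and 5.00, 4.84 and 4.27 in CN (log2 -1.11, adjusted p = 0.00447). SNORD141A had 3.04, 3.83 and 1.84 against 5.47, 5.30 and 6.03 (log2 -0.95, adjusted p = 0.0107). The values of all 6 did not overlap between the fractions, which held for 30.5% of all tested genes in this direction. With total counts in place of TMM, SNORA100 alone kept its call, and the adjusted p of the others ran from 0.059 to 0.175.

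The scaRNAs guide modification of spliceosomal RNA in Cajal bodies, outside nucleoli, and shifted less. Of 31 listed, 27 were tested, 16 were higher in NO and 0 were lower, with a median of 0.91. SCARNA28 had 9.20, 6.43 and 7.30 CPM in NO against 2.09, 2.52 and 2.92 in CN (log2 1.61, SE 0.201, adjusted p = 0.00185). SCARNA9L stood highest, at 3.84, 3.42 and 3.31 against 0.525, 0.733 and 0.730 (log2 2.41). The difference between scaRNA and snoRNA lists was not tested.

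Genes that host snoRNAs were higher in NO about as often as lncRNA genes in general. Of 30 tested snoRNA host genes with a SNHG or related name, 19 (63.3%) were higher in NO. This share was 64.2% for lncRNA genes and 31.9% for all tested genes. Of the host genes 1, SNHG16, was lower (log2 -0.78, adjusted p = 0.0121, and 0.105 with total counts). In 23 of the 30 host genes a small RNA gene overlaps an annotated exon (GENCODE release 44, where transcripts that retain an intron count the intron as exon). Reads of the small RNA could therefore be counted for the host, and of the 7 without one, 3 were higher. SNHG3, host of SNORA73A, had 143, 80.0 and 201 CPM in NO against 9.51, 10.4 and 12.2 in CN (log2 3.72, adjusted p = 0.000265), and SNHG12 had 49.4, 26.7 and 57.1 against 3.8, 3.16 and 4.34 (log2 3.56). GAS5, host of several box C/D snoRNAs, stood at 147, 75.4 and 106 CPM against 20.8, 19.6 and 22.0 (log2 2.40). The same overlap touched other genes: TMEM107, whose exon holds SNORD118, was 10.5-fold higher in NO, and MIR1248, which lies at the place of SNORA81, was 26.5-fold higher (log2 4.73, adjusted p = 0.000168). Of 2119 listed miRNA hairpin genes 51 were tested, 8 were higher and 10 lower, and without those that hold another small RNA, 3 of 43 were higher and 10 lower.

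RNase MRP and RNase P, sister enzymes with related RNAs, moved apart. RMRP, the RNA of RNase MRP, which cleaves the rRNA precursor, had 120, 67.3 and 122 CPM in NO and 23.6, 27.1 and 30.3 in CN. RPPH1, the RNA of RNase P, which trims tRNA precursors, had 15.7, 9.06 and 9.01 CPM in NO and 48.1, 43.6 and 75.2 in CN. Neither gene's values overlapped between the fractions: RMRP was higher in NO (log2 1.93, SE 0.254, adjusted p = 0.00252) and RPPH1 lower (log2 -2.31, SE 0.290, adjusted p = 0.00195). RN7SK, a nuclear RNA that holds back transcription elongation, was lower at 201, 140 and 124 CPM against 291, 338 and 383 (log2 -1.12, adjusted p = 0.00712).

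RN7SL1, the RNA of the signal recognition particle, had 216, 157 and 116 CPM in NO and 109, 102 and 189 in CN. These values overlapped (log2 0.29, adjusted p = 0.46), and 0 of the 3 tested 7SL genes were called. The telomerase RNA TERC had 0.618, 0.167 and 0.368 CPM against 0.244, 0.122 and 0.257, and at these few counts a difference could not be seen (log2 0.89, SE 0.526, adjusted p = 0.179).

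**Figure D2:**
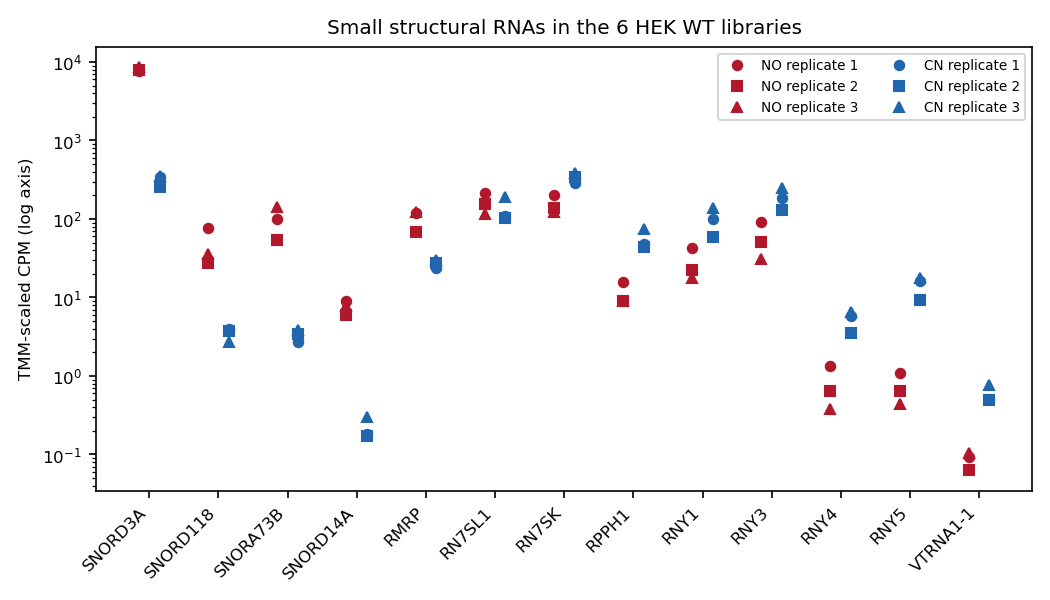
CPM of 13 small RNAs (horizontal axis) are plotted on a log axis for the NO replicates in red and the CN replicates in blue, 1 point per library. U3 (SNORD3A), U8 (SNORD118), U17B (SNORA73B), U14 (SNORD14A) and RMRP lie higher in NO, the points of RN7SL1 overlap, and RN7SK, RPPH1, the Y RNAs and VTRNA1-1 lie lower in NO.

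All 4 Y RNAs, components of Ro particles, were lower in NO. RNY5, shown above, had 1.09, 0.646 and 0.442 CPM in NO and 16.2, 9.33 and 17.6 in CN, a 20-fold difference (log2 -4.32, SE 0.359, adjusted p = 0.000168). RNY4 had 1.35, 0.646 and 0.383 against 5.87, 3.55 and 6.46 (log2 -2.75, adjusted p = 0.00377). RNY1 (log2 -1.85, SE 0.381) and RNY3 (log2 -1.70, SE 0.390) fell less, and their CN replicates differed by up to 2.33-fold for RNY1. The pseudogene RNY3P1, which resembles RNY3 and may share its reads, had a log2 fold change of -3.56. Of the vault RNAs, 2 of 3 tested were lower, with VTRNA1-1 at 0.0937, 0.0625 and 0.103 CPM against 0.513, 0.488 and 0.770 (log2 -2.72, adjusted p = 0.00387). VTRNA1-3 (log2 -1.63) lost its call with total counts (adjusted p = 0.131).

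Nuclear tRNA genes lay lower as a group. Of 487 listed, 203 were tested, 125 of these (61.6%) were lower and 0 higher in NO. With DESeq2, 0 were higher as well, and without adjustment 0 tRNA genes were higher at p under 0.05 in the main test. TRL-CAA1-2, a leucine tRNA gene (chr6:28941053-28941157) that the table lists 5 times with the same counts, had 0.206, 0.0833 and 0.103 CPM in NO and 1.37, 1.43 and 1.66 in CN (log2 -3.49, SE 0.375, adjusted p = 0.000696). A second leucine gene with the same anticodon, TRL-CAA2-1, had the lowest fold change of all tested tRNA genes (log2 -4.10), at 1 to 3 counts per NO library and 40 to 81 per CN library. The glutamate gene TRE-CTC1-3 had 2.55, 1.33 and 1.35 CPM against 6.24, 5.28 and 7.97 (log2 -1.90). Copies of a tRNA share reads, so the genes are not independent. The number lower was 45 with total counts (median -1.06) and 41 among genes with at least 10 counts in each library (median -1.08). How many tRNA genes passed the latter filter is not given here.

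Spliceosomal snRNAs were called in few cases: 2 of 37 tested were higher, and 1 was lower. RNU11, of the minor spliceosome, had 37.8, 17.3 and 16.1 CPM in NO and 9.91, 7.97 and 10.4 in CN (log2 1.33, adjusted p = 0.00698). RNU6ATAC, of the same spliceosome, moved the other way, with 18.8, 10.7 and 7.01 CPM against 24.0, 21.4 and 34.5 (log2 -1.13, adjusted p = 0.0173; 0.0727 with TMM from protein-coding genes). RNVU1-32 was the other member called higher (log2 0.89, adjusted p = 0.0403), and its adjusted p was 0.139, 0.129, 0.0591, 0.299 and 0.0596 without CN replicate 1, 2 or 3 or NO replicate 1 or 2.

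Nuclear rRNA took 59.8, 56.5 and 51.2% of the counts in the NO replicates and 67.8, 67.1 and 71.5% in the CN replicates. The shares did not overlap. A two-sided exact permutation test gave p = 0.1, and 3 libraries against 3 allow no smaller value (0.136 after Benjamini-Hochberg adjustment over 15 RNA kinds). A 45S copy held between 0.91 and 0.973 times the counts of its own 18S, 5.8S and 28S entries together in every library, so the table counts reads of mature rRNA under 45S as well and does not separate the precursor. With the copies of each rRNA summed, 28S had a log2 difference of -0.38 (SE 1.12, adjusted p = 0.795), 18S of -0.79 (SE 1.17, adjusted p = 0.593), 5.8S of -0.94 (SE 0.611, adjusted p = 0.218), 45S of -0.57 (SE 1.37, adjusted p = 0.747) and 5S of 0.08 (SE 0.282, adjusted p = 0.826). DESeq2 called 45S, 18S and 5.8S lower (adjusted p = 0.0191, 0.00528 and 0.00235).

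The balance among the mature rRNAs differed between the fractions without overlap. The counts of 28S divided by those of 18S, a ratio within a library that no scaling moves, were 1.07, 0.945 and 1.36 in NO and 0.805, 0.767 and 0.827 in CN. The counts of 5.8S divided by those of 28S were 0.0647, 0.0398 and 0.0379 in NO and 0.07, 0.077 and 0.0725 in CN. Both comparisons gave p = 0.1 in the exact permutation test (two-sided). The NO replicates spread more than the CN replicates in both ratios.

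Mitochondrially encoded RNA was higher in NO throughout: 37 of 37 genes (13 mRNAs, 22 tRNAs and both rRNAs) were called. Its share of all counts was 11.5, 17.1 and 12.8% in NO and 3.34, 3.88 and 2.39% in CN, and log2 fold changes ran from 0.59 to 2.19. RNR2, the 16S rRNA of the mitochondrial ribosome, had 76060, 114423 and 48826 CPM in NO and 20596, 22027 and 19078 in CN (log2 1.96, SE 0.679, adjusted p = 0.0345), and RNR1, the 12S rRNA, had 31547, 47276 and 20594 against 8564, 11167 and 9506 (log2 1.77, adjusted p = 0.0271). ATP6, of the ATP synthase, had 1131, 3065 and 1743 CPM against 522, 548 and 500 (log2 1.92, adjusted p = 0.00527), and COX1, of complex IV, had 1610, 3822 and 1138 against 746, 793 and 912 (log2 1.42, adjusted p = 0.0261). The highest value of all 4 genes was in NO replicate 2. Left out in turn, single libraries took the number called from 37 down to between 31 and 37, and RNR1, RNR2 and COX1 lost their calls without CN replicate 1 (adjusted p = 0.15, 0.154 and 0.113), CN replicate 2 (0.09, 0.115 and 0.0875), CN replicate 3 (0.137, 0.17 and 0.0764) or NO replicate 2 (0.0701, 0.0772 and 0.144), and both rRNAs also without NO replicate 1 (0.0588 and 0.0684). The mRNAs of nuclear genes for the respiratory chain did not share this direction: 26 of 80 tested were lower (32.5%) and 1 higher. Of 78 genes of mitochondrial ribosomal proteins 31 were lower (39.7%) and 0 higher, MRPL3 (log2 -0.82) and MRPS6 (log2 -0.72) among them. Of all tested protein-coding genes 29.1% were lower. How much mitochondrial material the NO fraction held was not measured otherwise and was not tested.

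**Figure D3:**
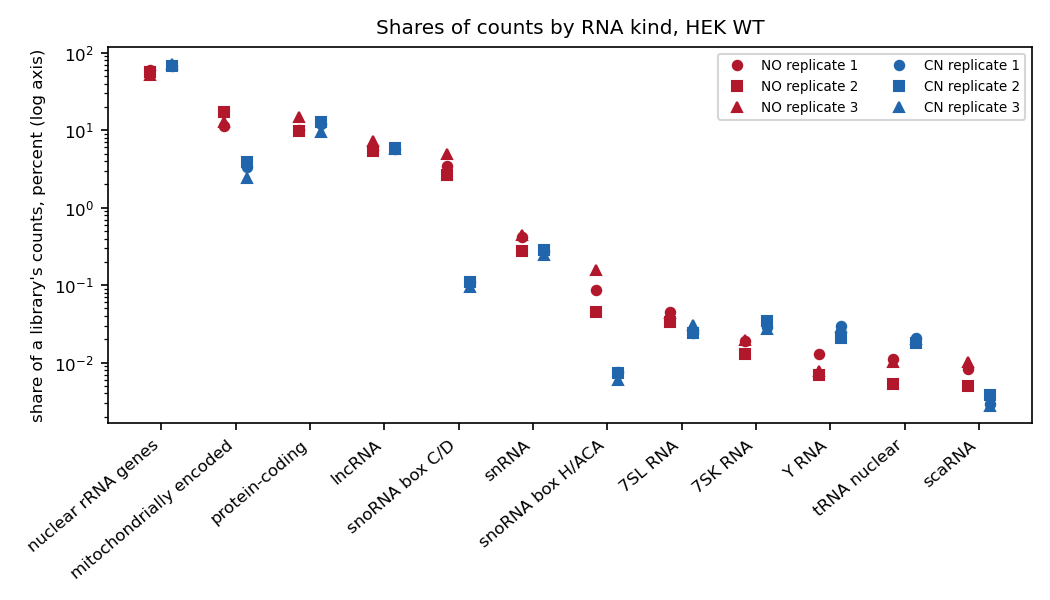
The share of each library's counts (vertical axis, percent, log scale) is plotted for 12 RNA kinds, with NO replicates in red and CN replicates in blue. Box C/D snoRNA took 2.65 to 4.89% of the counts in NO and 0.0935 to 0.11% in CN, mitochondrial RNA was higher in NO, and nuclear rRNA, Y RNA and tRNA were lower.

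Protein-coding genes split by their level. Of 17146 tested, 3998 were higher (23.3%) and 4987 lower (29.1%) in NO. Grouped by mean CPM over the 6 libraries, 3461 genes at up to 0.5 CPM had a median log2 fold change of 1.36 and 53% were higher, whereas 976 genes between 20 and 50 CPM had a median of -0.68 and 73.2% were lower. The count filter lets a low gene in through the fraction where it is higher, and the medians are a description. Genes called lower were 396 with total counts and 2375 with TMM factors from protein-coding genes, whose median then lay at 0.13 and 0.07 in place of -0.22. The order along the level is a relative difference that a scaling common to all genes does not change.

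**Figure D4:**
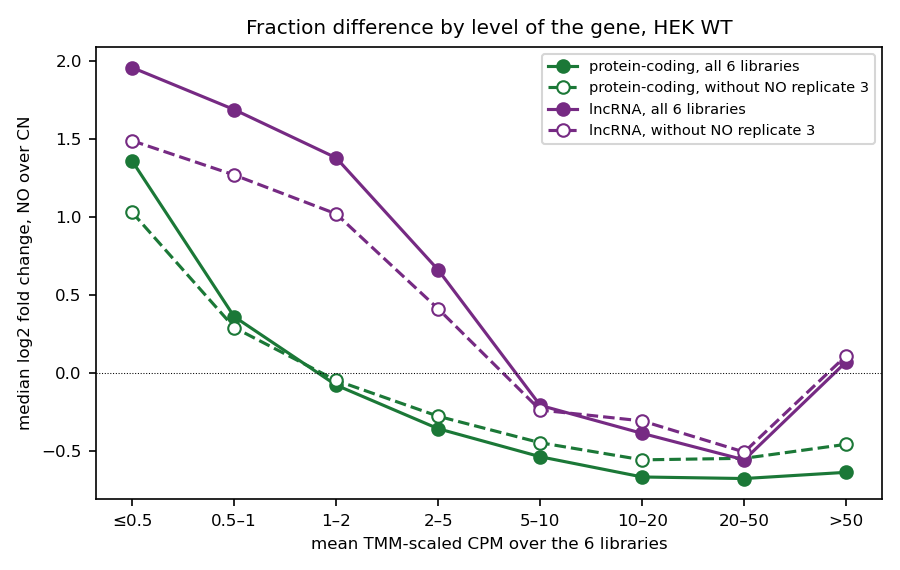
The median log2 fold change of NO over CN (vertical axis) is plotted for protein-coding and lncRNA genes grouped by mean CPM (horizontal axis), with all 6 libraries (filled points) and without NO replicate 3 (open points). Protein-coding genes fall from 1.36 at the lowest level to -0.68 between 20 and 50 CPM.

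Lists of abundant mRNAs held more members lower than higher in NO. Of 71 listed mRNAs for cytosolic proteins 33 were lower (46.5%, median -0.55), and of 71 for secreted and membrane proteins 11 were lower (15.5%, median -0.17). The difference between these lists was not tested, and the median of the secretory list was 0.14 with total counts. Ribosomal protein mRNAs had 20 of 79 lower (25.3%) and 3 higher (median -0.41), and mRNAs for nucleolar proteins 21 of 60 lower (35%) and 1 higher (median -0.42). For comparison, 20.9% of all tested genes, 29.1% of protein-coding genes and 73.2% of protein-coding genes between 20 and 50 CPM were lower. The lists were not set against genes of like level, so these shares do not show a trait of the lists. EEF1A1, a translation elongation factor, had 187, 197 and 111 CPM in NO and 289, 274 and 314 in CN (log2 -0.83, adjusted p = 0.0252; 0.0699, 0.0551 and 0.0723 without CN replicate 1, 2 or 3).

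In the lists of the paragraph above, most members called higher held snoRNA genes in their exons. Other members held a small RNA gene without being called higher. Of 79 ribosomal protein genes 52 held none in an exon, and only 3 of the 79 were higher. Whether the overlap accounts for the calls was not tested. The exception in these lists was CD9, a membrane protein of the secretory list, with a log2 difference of 0.71 (adjusted p = 0.0226; from 0.0778 to 0.141 without CN replicate 1, 2 or 3 or NO replicate 1, and 0.201 with DESeq2). RPL13A (log2 1.01) and RPL27A (log2 0.79) were among the ribosomal protein genes called higher, and SNORD33 and SNORA3A, respectively, overlap annotated exons of them. SNORD33 lies in an intron of the spliced RPL13A transcript and in an exon of transcripts that retain this intron. NOP56, of box C/D particles, was the nucleolar protein gene called higher, at 36.9, 27.8 and 27.8 CPM against 12.8, 12.2 and 13.6 (log2 1.26, adjusted p = 0.00289). EIF4A2 (90.6, 46.4 and 93.3 CPM against 15.7, 14.4 and 17.3, log2 2.28) and EIF4A1 (log2 0.57, adjusted p = 0.0256) were the translation genes called higher, and both hold snoRNA genes. EIF4A1 lost its call without CN replicate 1 (adjusted p = 0.184), CN replicate 2 (0.209), CN replicate 3 (0.0695), NO replicate 1 (0.164) or NO replicate 2 (0.0524), and RPL27A without CN replicate 2 (0.0511). With genes that hold a small RNA gene in an exon left out, 0 of 52 ribosomal protein, 0 of 53 nucleolar protein and 0 of 60 cytosolic protein mRNAs were higher in edgeR's test, and 0 in each list had an unadjusted p under 0.05 in this direction or were higher with DESeq2.

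The mRNA of fibrillarin (FBL), the methyltransferase of box C/D particles, had 6.45, 8.39 and 4.37 CPM in NO and 9.36, 8.52 and 9.92 in CN (log2 -0.54, adjusted p = 0.0675; -0.94 and 0.00472 without NO replicate 2). NPM1 (157, 169 and 87.8 against 183, 159 and 173 CPM) and NCL (119, 122 and 65.0 against 114, 104 and 116 CPM), abundant nucleolar proteins, had adjusted p of 0.344 and 0.705. The lowest NO value of these mRNAs was in replicate 3. GAPDH had 32.9, 37.3 and 18.9 CPM against 41.9, 37.5 and 51.9 (log2 -0.56, adjusted p = 0.0897; -0.92 and 0.0143 without NO replicate 2). ACTB had 32.0, 40.4 and 23.7 against 56.8, 47.0 and 71.2 (log2 -0.86, adjusted p = 0.0133; 0.056 with total counts). HNRNPUL1, the gene knocked out in the other cell line, had 11.1, 14.5 and 8.11 CPM against 18.2, 15.8 and 19.2 (log2 -0.66, adjusted p = 0.0251; 0.0638, 0.0661 and 0.0569 without CN replicate 1, CN replicate 3 or NO replicate 1).

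Of 6391 tested long non-coding RNA genes, 4101 (64.2%) were higher in NO and 276 (4.32%) lower, against 31.9 and 20.9% of all tested genes. Among genes with at least 10 counts in every library 1732 were higher and 151 lower, and the median of 1.71 became 1.08. Without NO replicate 3 the median was 1.29. The direction depended on level here too, with a median of 1.96 for 3413 genes at up to 0.5 CPM and of -0.56 for 51 genes between 20 and 50 CPM, but 31 genes above 50 CPM had a median of 0.07, with 29% higher and 19.4% lower. Long genes shared it: 29% of lncRNA genes that span up to 10000 bases and 79% of those that span 30000 to 100000 bases were higher.

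Abundant lncRNAs known for staying in the nucleus lay on the CN side. MALAT1, of nuclear speckles, had 79.3, 114 and 80.7 CPM in NO and 187, 185 and 207 in CN (log2 -1.08, SE 0.221, adjusted p = 0.00504; 0.0513 with total counts). NEAT1, the core of paraspeckles, had 14.0, 20.7 and 9.03 against 27.7, 38.3 and 31.6 (log2 -1.16, adjusted p = 0.00787). FTX (log2 -1.02) and JPX (log2 -0.87), non-coding genes of the X inactivation centre, were lower too and lost their calls with total counts (adjusted p = 0.0578 and 0.0869), as did MIR924HG (log2 -0.93; 0.0709). Of the 7 tested genes on this list without a small RNA gene in an exon, 3 were lower and 1 higher. Of all 15 tested genes on it 7 were lower (46.7%) and 4 higher (26.7%), against 20.9 and 31.9% of all tested genes. MEG3, an imprinted lncRNA, was among the higher ones at 0.543, 0.479 and 1.12 CPM against 0.0244, 0.0855 and 0.0270 (log2 3.91), and SNHG14, an imprinted transcript that holds many box C/D genes, had 3.94, 2.60 and 14.0 against 0.854, 0.745 and 0.446 (log2 3.33).

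Olfactory receptor genes and markers of mature kidney cells, lists that belong to other cell types, were counted beside these. Of 408 olfactory receptor genes 31 were tested, 22 were higher in NO (71%) and 0 lower, and all 5 tested of 7 markers of mature kidney cells were higher, with LRP2 at 6.82, 7.08 and 7.58 CPM against 5.43, 5.92 and 4.93 (log2 0.40, adjusted p = 0.048; from 0.0527 to 0.328 with any of the 6 libraries left out) and CUBN at 4.10, 3.60 and 7.54 against 2.46, 2.71 and 1.27 (log2 1.24; 0.0634 with total counts). A gene that is low in CN passes the count filter through NO, so these shares are a description. For comparison, 31.9% of all tested genes and 53% of protein-coding genes at up to 0.5 CPM were higher. At 10 or more counts in each library 7 olfactory and 2 kidney genes were higher. Without NO replicate 3 there were 17 and 2, and without CN replicate 3 there were 22 and 3, and without NO replicate 2 there were 48 and 6. With total counts there were 17 and 1. All 7 markers of HEK293T were tested, PAX2 was higher (log2 1.29; adjusted p = 0.0627 with total counts) and VIM (log2 -0.59) and INA (log2 -0.73) were lower, the last pair with adjusted p of 0.0576 and 0.0634 without CN replicate 1 and of 0.115 and 0.0653 without CN replicate 3. Of 503 tested zinc finger genes 55 were higher (10.9%) and 108 lower (21.5%), ZNF644 (log2 -0.97) among the lower ones. Of 50 histone genes 2 were lower (4%) and 0 higher. Of all tested protein-coding genes 23.3% were higher and 29.1% lower. The zinc finger and histone lists were not set against genes of like level, so their shares do not show a trait of the lists. NO replicate 3 stood apart from the other NO replicates, with a TMM factor of 1.604 against 0.9456 and 0.9241 and correlations of 0.9409 and 0.9156 with them across genes, where the others correlated at 0.9716. CN replicate 3 stood apart within CN, with a TMM factor of 0.7118 against 0.98 and 1.023. Its correlations with the other CN replicates were 0.9772 and 0.9728, where those correlated at 0.9846.

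The largest rises of all lay beside the U3 genes. The 5 U3 copies lie at chr17:19061912-19190245, and 7 of the 8 largest rises with a mean of at least 50 counts, no overlap and an adjusted p under 0.05 were genes of chromosome 17 within 1 Mb of them: SLC47A2, LOC102724624, GRAPL-AS1, SLC5A10, MYO15A, GRAPL and PRPSAP2. All 3 tested genes other than U3 that overlap the cluster and 11 of 25 up to 0.5 Mb away were higher in NO, against 31.9% of all tested genes, and beyond 5 Mb on the chromosome 278 of 1128 were higher. These 3 are LOC102724624, GRAPL and GRAPL-AS1.

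Most of these genes differed widely between the NO libraries. SLC5A10, a sodium-coupled sugar transporter gene 39347 bases from the cluster, had 159463, 2681 and 74713 counts in NO and 199, 54 and 278 in CN (2988, 55.8 and 1100 against 2.43, 0.659 and 3.76 CPM; log2 9.24, SE 1.43, adjusted p = 0.00387). MYO15A, a myosin gene of hair cells, had 19683, 127 and 15364 counts against 38, 39 and 13 (log2 9.05). PRPSAP2 had 46290, 874 and 86192 counts against 640, 674 and 757 (log2 6.36). In these 3 genes NO replicate 2 was the low library. SLC47A2, a transporter gene of kidney, had 43, 20 and 35121 counts against 7, 12 and 3, so its log2 fold change of 10.85 rests on NO replicate 3 and was 2.71 without it. LOC102724624, by contrast, had 484, 6459 and 26407 counts against 8, 9 and 9 (log2 10.64, SE 1.36, adjusted p = 0.0022), and GRAPL-AS1 had 91, 6460 and 25896 against 9, 11 and 10 (log2 10.40). GRAPL was high in all 3 NO libraries, at 24886, 27211 and 62358 counts against 724, 193 and 89 (log2 7.30, adjusted p = 0.000745). GRAPL and GRAPL-AS1 overlap, and the counting strand is not given in the sources used here.

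Further neighbours followed the same uneven pattern and were looked up after these. GID4 had 17840, 76 and 89 counts in NO and 209, 187 and 175 in CN. Its log2 fold change of 5.55 turned to -0.80 (adjusted p = 0.0351) without NO replicate 1, and its adjusted p was 0.0523 and 0.0514 without CN replicate 1 or 3. AKAP10 (52788, 458 and 32029 against 1073, 1096 and 977) and LOC105371574 (23826, 924 and 27284 against 3220, 2351 and 2465) were called higher, though NO replicate 2 lay below CN in both. FBXW10 had 110, 35 and 269 counts against 22, 19 and 9 (log2 3.43). Where in these genes the counts fall cannot be seen in a table per gene and was not tested. SERPINC1, the antithrombin gene on chromosome 1, was the only one of the 8 from elsewhere, with 515, 15 and 34 counts against 8, 4 and 2 (log2 5.85, and 2.7 without NO replicate 1).

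**Figure D5:**
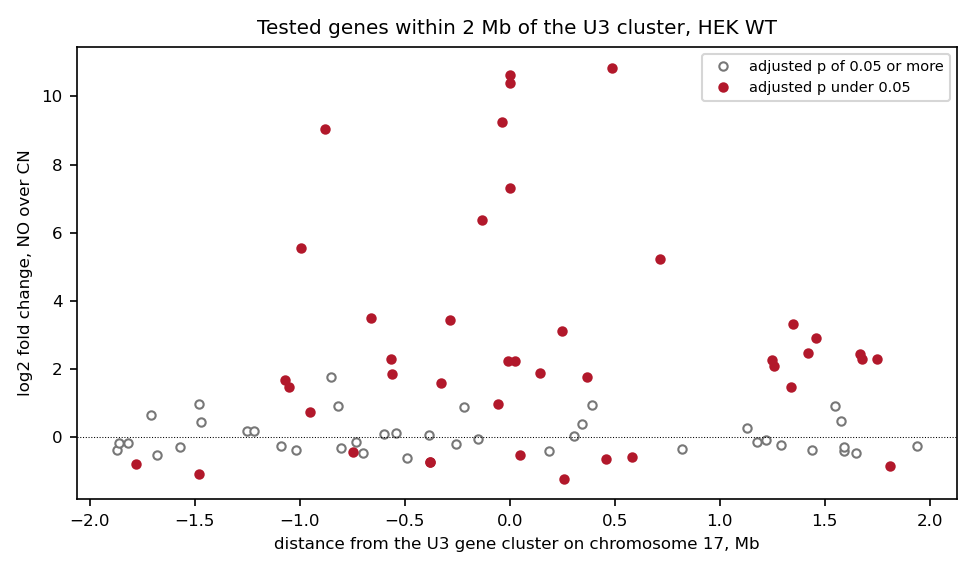
The log2 fold change of NO over CN (vertical axis) is plotted against distance from the U3 gene cluster in Mb for the tested genes within 2 Mb, and filled points have an adjusted p under 0.05. The highest points, up to 10.85, lie within 1 Mb of the cluster, among neighbours near 0.

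Large falls outside the small RNAs are named here for called protein-coding and lncRNA genes with no overlap and a mean of at least 200 counts. Over all tested genes of these kinds, the lowest log2 fold changes were -7.78 for protein-coding and -4.45 for lncRNA genes. LOC105379504, annotated as protein-coding on chromosome 21, had 34, 21 and 51 counts in NO and 1092, 863 and 2032 in CN (log2 -4.79, SE 0.400, adjusted p = 0.000175). SNTB2, which encodes a syntrophin and is listed a second time, had 16.0, 11.8 and 8.05 CPM against 68.6, 20.2 and 105 (log2 -2.43, adjusted p = 0.0052), with CN replicate 2 close to NO. The lncRNAs named under this rule were LOC101927615 (log2 -2.15; adjusted p = 0.0761 with total counts), LOC101929594 (log2 -1.68) and LOC105377102 (log2 -1.64). Of the non-coding entries with the highest CPM, LOC100507412 (39559, 35616 and 21018 against 41779, 39971 and 60084) and LOC110467529 (10088, 9586 and 5631 against 9321, 8001 and 13271) were not called. Both were lowest in NO replicate 3 and highest in CN replicate 3, as the summed 45S rRNA was (156341 and 484584 CPM). Whether these entries count rRNA reads was not tested. LOC102724951 had 25.1, 2112 and 25.2 CPM in NO and 1873, 2133 and 3341 in CN, so NO replicate 2 matched CN (log2 -1.76, adjusted p = 0.295; -6.77 and 2.89e-05 without it).

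The difference between NO and CN was set against the same difference in HEK UL1 KO by an interaction term over all 12 libraries. It was called for 43 of 37806 genes (0.114%), 32 with a larger and 11 with a smaller value in HEK UL1 KO, and 1254 genes had an unadjusted p under 0.05. Of the snoRNA, tRNA, Y RNA and mitochondrially encoded genes, 0 were called in it. The medians in HEK UL1 KO were 3.02 for box C/D snoRNA, 3.23 for box H/ACA snoRNA, -1.46 for tRNA and 0.71 for mitochondrially encoded genes. LOC105379504 was called, at -4.79 in HEK WT and 0.38 in HEK UL1 KO (interaction 5.46, adjusted p = 0.00201), and so was LOC102724624 beside U3, at 10.64 and 3.15 (interaction -7.14, adjusted p = 0.0152). OXCT1, a mitochondrial enzyme of ketone body use, stood at -0.41 and 1.77 (interaction 2.46, adjusted p = 0.000499). Its CN counts were 684, 720 and 726 in HEK WT and only 44, 52 and 50 in HEK UL1 KO. With total counts 0 genes were called, and with DESeq2 81. LOC105379062, an lncRNA gene of chromosome 5, stood at -0.96 and 1.8 (interaction 3.05, adjusted p = 0.000499). Its CN counts were 227, 265 and 185 in HEK WT and only 11, 12 and 8 in HEK UL1 KO.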

How the data were processed

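Total RNA was measured in both fractions (NO and CN) of either cell line (HEK WT, HEK UL1 KO), in 3 replicates each. Per the labels and the study's methods, the submitters made libraries with the CORALL kit without rRNA depletion, sequenced single reads of 75 bases, trimmed them with cutadapt 3.7, aligned them to GRCh38 with STAR 2.7.8 with up to 20 alignments per read, and counted genes with featureCounts; FastQC 0.11.4 and DESeq2 are also named, and the counting options, the strand setting and the annotation version are not given in the sources used here. The authors deposited raw counts per gene, not normalized, as 1 table per fraction. The library totals above set the depth, and as rRNA reads are counted in several entries, a total is not a number of reads.

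The tables were joined by gene, and 59288 of 61163 genes were matched to RefSeq (GRCh38.p14) for biotype and position. NO and CN of HEK WT were compared with edgeR 4.0.16 (R 4.3.3; quasi-likelihood F test, filterByExpr with a minimum count of 10 and total of 15, TMM, Benjamini-Hochberg adjustment, threshold 0.05) on the 6 libraries, and the interaction on all 12. Shares and ratios of single values were compared with exact permutation tests. Replicates of a fraction differed by a chi-square per gene of 17.07 to 104.3, so none was a copy of another. The procedure was tested on simulated data. Alternatives were total counts, TMM without rRNA or from protein-coding genes, DESeq2 1.42.0, other filters, a replicate block, all 12 libraries, 13469 repeated entries counted once and single libraries left out. A last one, leaving out genes with a small RNA gene in an exon, was chosen after seeing the data.

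The libraries, lists and named genes were chosen with earlier results of these data known. Named genes were the 8 largest rises and falls with no overlap and a mean of at least 50 counts, the 4 largest of each direction for protein-coding and lncRNA genes with at least 200, the 5 of highest CPM in each fraction outside nuclear rRNA, the 2 of highest CPM in each list and a fixed set of references; members of these that were not called are mostly given as counts, and exceptions, further members of short lists and neighbours of U3 were added after their values were seen. The list of miRNA hairpins was corrected to leave out host genes. Python 3.11.15, pandas 2.3.3 and matplotlib 3.10.9 made the summaries and figures. Some items that this rule names are not reported here.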

Additional observations from a re-analysis of the deposited data

Results flagged for a closer look

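The difference between NO and CN was itself different in HEK UL1 KO, by the test of the interaction, for 4 genes named in the report. LOC105379504 had an interaction of 5.46 on the log2 scale (SE 0.720, adjusted p = 0.00201), with 34, 21 and 51 counts in NO of HEK WT, 1092, 863 and 2032 in CN of HEK WT, 357, 154 and 18 in NO of HEK UL1 KO and 128, 73 and 60 in CN of HEK UL1 KO, so the wild-type CN libraries were the high ones. LOC102724624, inside the U3 cluster, had an interaction of -7.14 (SE 1.20, adjusted p = 0.0152), with 616, 316 and 118 counts in NO and 32, 33 and 16 in CN of HEK UL1 KO. OXCT1 had an interaction of 2.46 (SE 0.265) and LOC105379062 of 3.05 (SE 0.341), each with an adjusted p of 0.000499. In HEK WT, OXCT1 had 333, 323 and 498 counts in NO and 684, 720 and 726 in CN. In HEK UL1 KO it had 444, 153 and 143 in NO and 44, 52 and 50 in CN. LOC105379062 had 62, 76 and 111 in NO and 227, 265 and 185 in CN of HEK WT, and 89, 36 and 31 in NO and 11, 12 and 8 in CN of HEK UL1 KO. For both genes the CN libraries of HEK UL1 KO were the low ones. With total counts in place of TMM, 0 genes were called for the interaction. The cause of these differences was not tested.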

How the results depend on the processing

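Scaling and filtering moved the number of genes called and the order of neighbouring RNA kinds. The main setting called 15494 genes. There were 24943 called with all 12 libraries in one fit (14580 higher, 10363 lower), 8759 among genes with at least 10 counts in each library (4937 and 3822) and 6993 with total counts (6387 and 606). With TMM from protein-coding genes 2924 were lower. Calls were 60.4% higher in the main setting, 91.3% with total counts, 78.1% with TMM from protein-coding genes, 54.8% with DESeq2 and 66% with TMM without rRNA, and these moved the median of all genes by 0.35, 0.29, -0.27 and 0.07. With single libraries left out, 12500 to 21120 genes were called, 7606 to 12300 higher and 4371 to 8820 lower.

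The median of box H/ACA lay above that of box C/D snoRNA with DESeq2 (2.84 and 2.76), without a filter (2.80 and 2.76) and at 10 counts in each library (3.88 and 3.75). The median of lncRNA lay below that of mitochondrial RNA at 10 counts in each library (1.08 and 1.86) and without NO replicate 3 (1.29 and 1.78) or CN replicate 3 (1.52 and 1.62).

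At 10 or more counts in each library, 90 box C/D and 73 box H/ACA snoRNA genes were higher, 41 tRNA genes lower, 1732 lncRNA genes higher, and 2497 and 3250 protein-coding genes higher and lower. The numbers tested at this filter are not given, so these counts are not shares. With total counts 45 tRNA and 396 protein-coding genes were lower and 2516 protein-coding genes higher. TMM from protein-coding genes left 2375 of these lower. Without a filter 222 tRNA genes were lower and 6598 lncRNA genes higher. All 12 libraries gave 7952 protein-coding genes lower and 7063 lncRNA genes higher. Leaving out single libraries gave 152 to 170 box C/D genes, 106 to 116 box H/ACA genes and 3309 to 5707 lncRNA genes higher, 93 to 164 tRNA genes lower, 31 to 37 mitochondrial genes higher, and 3119 to 4879 protein-coding genes higher and 3543 to 6944 lower.

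The sources used here do not say whether the replicate numbers pair the samples. Deviations of the same-numbered NO and CN libraries correlated at -0.1346, -0.396 and -0.5448, and those of the other combinations ran from -0.2362 to 0.4722. A culture divided into both fractions could give correlations of either sign, so these values cannot decide whether the samples are paired. The block is given as an alternative, only here. With a replicate block 9577 genes were called, 5719 higher and 3858 lower. Under this block 78 tRNA genes were lower, 2548 lncRNA genes higher, 2310 protein-coding genes higher and 3227 lower, 14 olfactory receptor genes and 1 kidney marker higher, and the interaction was called for 16 genes.

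With DESeq2, 45S (-0.82), 18S (-1.03) and 5.8S rRNA (-1.19) passed the threshold. The direction of 5S rRNA turned with DESeq2 (-0.17), all 12 libraries (-0.16), no filter (-0.14) and single libraries left out (-0.24 to 0.32; -0.03, -0.13 and -0.09 among them). With counts outside rRNA as denominator the NO to CN ratio of shares was 21.3 for box C/D snoRNA, 2.67 for mitochondrial RNA and 0.353 for 7SK. The ratio turned from above to below 1 for snRNA (0.871), 7SL (0.941), protein-coding genes (0.619), lncRNA (0.641) and pseudogenes (0.736). Whether abundant entries such as LOC100507412 and LOC110467529 count rRNA reads was not tested, so these ratios may still include rRNA. The interaction was called for 81 genes with DESeq2, 104 with no filter, 20 at 10 counts in each library, 0 with total counts and 25 to 57 with single libraries left out. Of 97 named genes, 88 were called and 37 of these lost the call under at least 1 setting. With single libraries left out, GID4 ran from -0.80 (without NO replicate 1) to 6.12, RN7SL1 from -0.03 (without NO replicate 1) to 0.55 and NCL from -0.43 to 0.12 (without NO replicate 3). Scaling or filtering turned LOC110467529 to 0.02 with TMM from protein-coding genes and 0.04 with total counts, and NCL to 0.16, 0.14 and 0.09 with TMM from protein-coding genes, total counts and 10 counts in each library. The cause of these changes was not tested. Depth limits RNAs with few counts, such as TERC and the vault RNAs.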
